A study of Mus musculus with 2 samples.

Results

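The 32 genes described here encode scaffold proteins, kinases, phosphatases and regulators of the postsynaptic density, the protein mesh beneath the membrane of excitatory synapses. They were chosen by name, with no measured value in the rule, although earlier results of these data were known. They were found among 45578 genes of the deposited table by the symbol that precedes the number in each transcript name. All 32 symbols matched 1 gene identifier each, and all had footprints in both libraries. The data are ribosome footprint counts from 2 whole-brain polysome preparations, biological replicates 1 and 2 of a single group labelled as control, at postnatal day 5. These mice were FVB animals of the genotype Smn+/-; SMN2tg/0, so they were heterozygous for the loss of Smn and carried human SMN2 as a transgene. Polysomes of each frozen brain were collected from a sucrose gradient and digested with RNase I, and fragments of 25 to 35 nucleotides were sequenced. A wild-type or affected group was not analysed here, so the comparisons are between genes, and between the replicate libraries.

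At an excitatory synapse, the Dlg proteins (PSD-95 and its relatives) bind the tails of glutamate receptors. Dlgap proteins link them to Shank proteins, and Homer proteins tie Shank to metabotropic receptors and to internal calcium stores. Calcium entry activates the kinase CaMKII and the phosphatase calcineurin, both through calmodulin, and regulators of small GTPases and of actin shape the spine around this scaffold. In the rodent forebrain Dlg4 and Camk2a are known as genes whose products accumulate as synapses mature, whereas Dlg3 and Camk2b are prominent early.

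The libraries held 1866831 footprints for replicate 1 and 5261878 for replicate 2. Member counts ranged from 20 to 1451 in replicate 1 and from 73 to 4671 in replicate 2. The labelled tissue was checked with neuronal markers (Snap25, Syt1, Rbfox3, Map2, Tubb3, Stmn2, Elavl3 and Elavl4). All 8 had footprints, with a summed level of 5419 CPM (counts per 1000000 footprints of the library) in replicate 1 and 4333 CPM in replicate 2. The liver gene Alb and the kidney gene Umod had a count of 0 in both libraries, which at 3 counts allows a level of 1.61 CPM for replicate 1 and of 0.570 CPM for replicate 2. Of the other 4 genes taken as markers of absent tissues, the insulin gene Ins2 had 0 and 1 footprints, the muscle gene Ckm 3 and 4, and the heart and muscle gene Myh7 11 and 45. The muscle actin gene Acta1 had 140 and 264 footprints, at percentile 73.0 of the coding genes. It belongs to a family of similar actin genes, and the source of these footprints was not tested. Ranges after the values are exact Clopper-Pearson 95% intervals. These intervals and floors cover counting error only, and PCR copies are not independent molecules. In a whole brain, fewer cells that express a gene and less mRNA or fewer ribosomes per cell cannot be told apart.

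The 32 genes together took 0.562% ± 0.0263 of all footprints (SD, n = 2), with 0.543% (0.532 to 0.554) in replicate 1 and 0.580% (0.574 to 0.587) in replicate 2. To compare genes of different size, counts were divided by the longest annotated coding sequence of each gene. The resulting footprint density is CPM per kb of coding sequence. The median density of the 32 genes was 53.3, against 23.5 for the 13317 protein-coding genes that averaged 10 or more footprints, a ratio of 2.27. Of the 32, 22 lay above the median of those genes, 10 lay below it and 6 lay in the highest 10%. Their median percentile was 71.4, but it was 48.1, just below the typical coding gene, when only the highest transcript of each gene was counted. Densities spanned 89.8-fold, from 11.2 ± 2.79 for Dlgap2 to 1008 ± 511 for Nrgn. The signalling enzymes and calmodulin regulators filled the upper end of this range. The lower part was mixed, with the large scaffolds Dlgap2, Shank3 and Lrrc7, the exchange factors Iqsec2 and Kalrn, and the shorter Arc, Homer2 and Homer3. Short coding sequences tend to be dense in this table. The Spearman correlation of density with coding length was -0.54 across the 32 genes and -0.45 across the 13317 genes, given as a description.

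**Figure D1:**
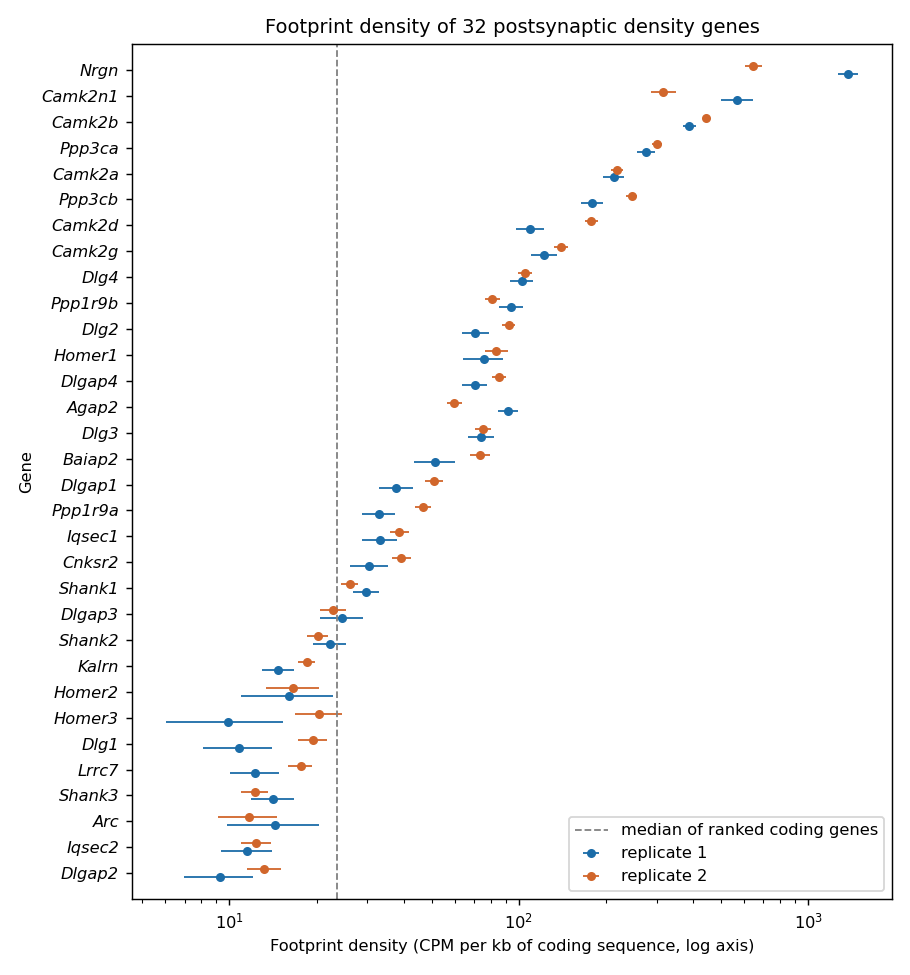
Footprint density of each of the 32 genes, in CPM per kb of the longest coding sequence on a log axis, with 1 point per replicate and 95% counting intervals as bars. The dashed line marks the median of 13317 coding genes, 23.5. Nrgn, Camk2n1 and Camk2b lie at the top, and Dlgap2, Iqsec2 and Arc at the bottom.

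Among the Dlg genes, which encode the membrane-associated scaffolds, Dlg4 (PSD-95, ENSMUSG00000020886) had the highest density. It stood at 102 (93.0 to 112) in replicate 1 and 105 (99.1 to 111) in replicate 2. Dlg3 (SAP102, ENSMUSG00000000881) had 74.2 (66.6 to 82.3) and 75.1 (70.6 to 79.9). The Dlg3 density was thus 0.725-fold that of Dlg4 in replicate 1 (0.628 to 0.836) and 0.717-fold in replicate 2 (0.660 to 0.780). The intervals lie below 1 in both libraries, so at this age the scaffold known for its early role had fewer footprints per kb than the one known for its later role. Dlg2 (PSD-93) had 70.7 and 92.2, below Dlg4 in both libraries. Dlg2 and Dlg3 changed places between the libraries, and their order is not settled. Dlg1 (SAP97), which also acts in epithelia, was the lowest of the family at 10.8 and 19.4. Dlg4 exceeded Dlg1 9.49-fold (7.18 to 12.8) in replicate 1 and 5.40-fold (4.75 to 6.17) in replicate 2.

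The Dlgap and Shank layers each had the same internal order in both libraries. Dlgap4 was the highest Dlgap gene, with densities of 70.3 and 85.2, and it held 49.5% ± 0.0769 of the family's summed density (SD, n = 2). Dlgap1 followed at 37.8 and 51.0, Dlgap3 at 24.5 and 22.8, and Dlgap2 at 9.26 and 13.2. Intervals excluded equality in both libraries for each of the 6 Dlgap pairs. With only the highest transcript of each gene, the mean log2 ratio of Dlgap1 over Dlgap3 turned from 0.89 to -0.67. Shank genes encode the largest scaffolds of the set, with coding sequences of 5418 to 6504 nucleotides. Shank1 had 29.7 and 26.0, Shank2 22.2 and 20.2, and Shank3 14.1 and 12.2. This order also held in both libraries with intervals that excluded equality, and Shank1 was 2.10-fold (1.73 to 2.57) and 2.13-fold (1.88 to 2.41) above Shank3. Their shares of the Shank total differed little between the libraries, at 44.8% ± 0.333 for Shank1, 34.1% ± 0.658 for Shank2 and 21.2% ± 0.326 for Shank3.

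Homer1 was by far the densest Homer gene, at 75.6 (64.2 to 88.3) and 83.7 (76.4 to 91.4). Homer2 had 16.1 and 16.6, and Homer3 had 9.92 and 20.4. Homer1 exceeded both in each library, while the order of Homer2 and Homer3 was not settled, with intervals that reached equality in both libraries. Summed by layer, the Dlg genes had a density of 275 ± 23.7, the Dlgap genes 157 ± 21.5, the Homer genes 111 ± 13.5 and the Shank genes 62.3 ± 5.38 (SD, n = 2). The Dlg sum was above the Dlgap sum, the Dlgap sum above the Homer sum and the Homer sum above the Shank sum in both libraries. The Homer sum rests on a coding length of 1113 nucleotides for Homer1. Homer1 transcripts with coding sequences of 543 to 702 nucleotides held 87.9% and 78.0% of its count. A shorter length would raise the Homer sum, so its order against the Dlgap sum is not settled. All these sums are footprints per kb and not protein amounts.

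**Figure D2:**
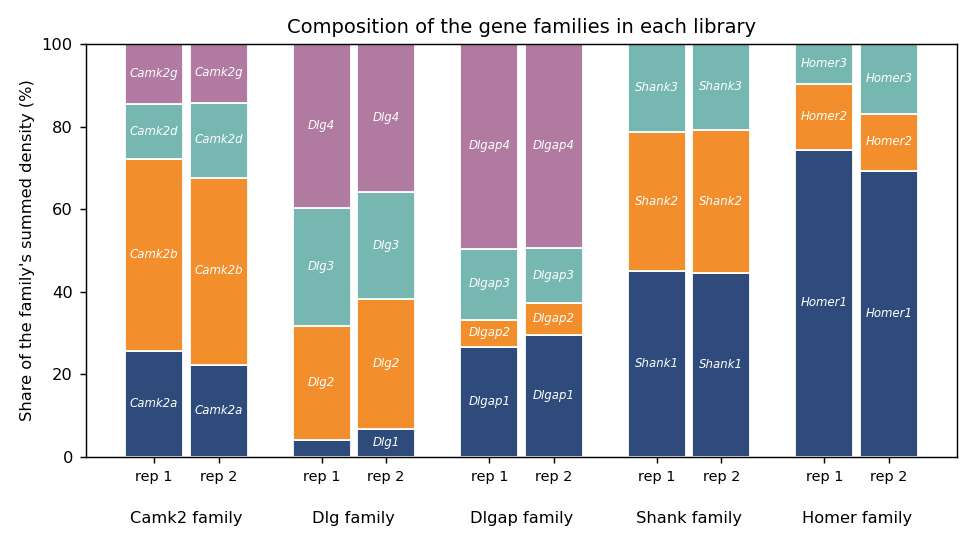
Share of each gene in the summed footprint density of its family, in percent, for the Camk2, Dlg, Dlgap, Shank and Homer families, with 1 bar per replicate. The lowest segment of the Dlg bars is Dlg1, which is left without a label in replicate 1. The Shank bars are nearly the same in both libraries, and the share of Camk2d is larger in replicate 2.

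The 4 genes of CaMKII, the calcium- and calmodulin-dependent kinase of the postsynaptic density, had a summed density of 906 ± 105 (SD, n = 2), above the sum of any scaffold family. Camk2b (ENSMUSG00000057897), whose product binds actin, was the highest at 388 (369 to 409) and 444 (431 to 457). Camk2a (ENSMUSG00000024617), the main kinase of mature forebrain synapses, had 212 (196 to 230) and 219 (209 to 230). Camk2b exceeded Camk2a 1.83-fold in replicate 1 (1.66 to 2.02) and 2.03-fold in replicate 2 (1.92 to 2.14). This ratio rests on the sum over transcripts. In replicate 1, 88.5% of the Camk2b count lay on 10 coding transcripts that held from 6.69% to 10.1% each, whereas 35.8% of the Camk2a count lay on 1 transcript. With only the highest transcript of each gene, the mean log2 ratio turned from 0.94 to -0.82. The CaMKII genes are similar in sequence, and fragments that match more than 1 of them make their counts uncertain.

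Camk2d had 109 (97.8 to 122) and 178 (169 to 187), and Camk2g had 122 (110 to 135) and 140 (132 to 148). Camk2a lay above both in each library, by 1.94-fold and 1.23-fold over Camk2d and by 1.74-fold and 1.57-fold over Camk2g. Camk2d and Camk2g changed places between the libraries when all transcripts were summed. Protein-coding transcripts held 59.9% and 57.6% of the Camk2d count and all of the Camk2g count. On these alone, Camk2d had 196 and 864 footprints and Camk2g had 362 and 1170. With coding lengths of 1602 and 1590 nucleotides, Camk2g was then the higher in both libraries. In shares of the family, Camk2b held 46.0% ± 1.01, Camk2a 23.9% ± 2.25, Camk2d 15.6% ± 3.54 and Camk2g 14.5% ± 0.276. Camk2n1, which encodes a small protein inhibitor of CaMKII, had a density of 567 (499 to 642) in replicate 1 and 316 (286 to 349) in replicate 2. Its coding sequence spans 237 nucleotides of a transcript of 4444, and footprints anywhere on that transcript enter its count.

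The counterparts of CaMKII in calcium signalling were also dense. Ppp3ca, the alpha catalytic subunit of calcineurin, had 275 (257 to 295) and 300.4 (289 to 312). Ppp3cb, the beta catalytic subunit, had 180 (165 to 196) and 245 (235 to 256). Ppp3ca was the higher of the pair in both libraries, 1.53-fold (1.37 to 1.71) and 1.23-fold (1.16 to 1.30). Nrgn (neurogranin, ENSMUSG00000053310), which binds calmodulin at low calcium in forebrain neurons, was the densest gene at 1370 (1263 to 1483) and 646 (602 to 693). Both values lay above those of all other members in the same library, although they differed from each other by far more than counting error. This rank holds per kb of coding sequence. The coding sequence of Nrgn spans 237 nucleotides of a transcript of 1453, and footprints anywhere on that transcript enter its count. In CPM, Nrgn had 325 and 153, below the 777 and 888 of Camk2b.

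The regulators of small GTPases had lower densities, apart from Agap2. Agap2 (PIKE), a GTPase-activating protein of the Arf family that stimulates PI3 kinase, had 91.9 (84.8 to 99.5) and 59.9 (56.4 to 63.5). Iqsec1, an exchange factor for Arf6, had 33.2 and 38.6, and Iqsec2, an exchange factor whose gene is linked to intellectual disability, had 11.5 and 12.4. Iqsec1 was 2.88-fold (2.25 to 3.71) and 3.12-fold (2.71 to 3.59) above Iqsec2. Kalrn, which encodes kalirin, an exchange factor for small GTPases, had 14.8 and 18.5. Its longest coding sequence of 8895 nucleotides was the longest of the set, and many of its transcripts are shorter.

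Other organisers of spine actin, membrane and signalling ranged from Arc, the third lowest of the 32 by mean density, to Ppp1r9b at percentile 82.3. Ppp1r9b (spinophilin), which targets protein phosphatase 1 to spines, had 94.1 (85.4 to 103) and 81.0 (76.2 to 86.1). Its relative Ppp1r9a (neurabin) had 32.9 and 46.6, so Ppp1r9b was 2.86-fold (2.44 to 3.37) and 1.74-fold (1.59 to 1.90) higher. Baiap2 (IRSp53), which couples membrane curvature to actin, had 51.3 and 73.3. Cnksr2, a scaffold of Ras signalling, had 30.4 and 39.3, and Lrrc7 (densin) had 12.3 and 17.6. Arc, the immediate early gene that promotes AMPA receptor endocytosis, had 14.4 (9.84 to 20.3) and 11.6 (9.13 to 14.6), from 32 and 73 footprints. Neither its level nor those of Homer2 and Homer3 can be resolved finely at this depth.

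Taking all 27 pairs within the 8 gene families, with all transcripts summed, 24 had the same order in both libraries with intervals that excluded equality. The other 3 were Dlg2 with Dlg3, Homer2 with Homer3, and Camk2d with Camk2g. An agreed order did not mean an equal ratio. In 10 of the 27 pairs the intervals of the replicates did not overlap, among them Dlg4 over Dlg1, Camk2b over Camk2d and Ppp1r9b over Ppp1r9a. The 10 also include Dlg2 with Dlg3 and Camk2d with Camk2g, which had no agreed order. Many pairs share a gene, so they are not independent, and the share among other pairs of genes is not given here.

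**Figure D3:**
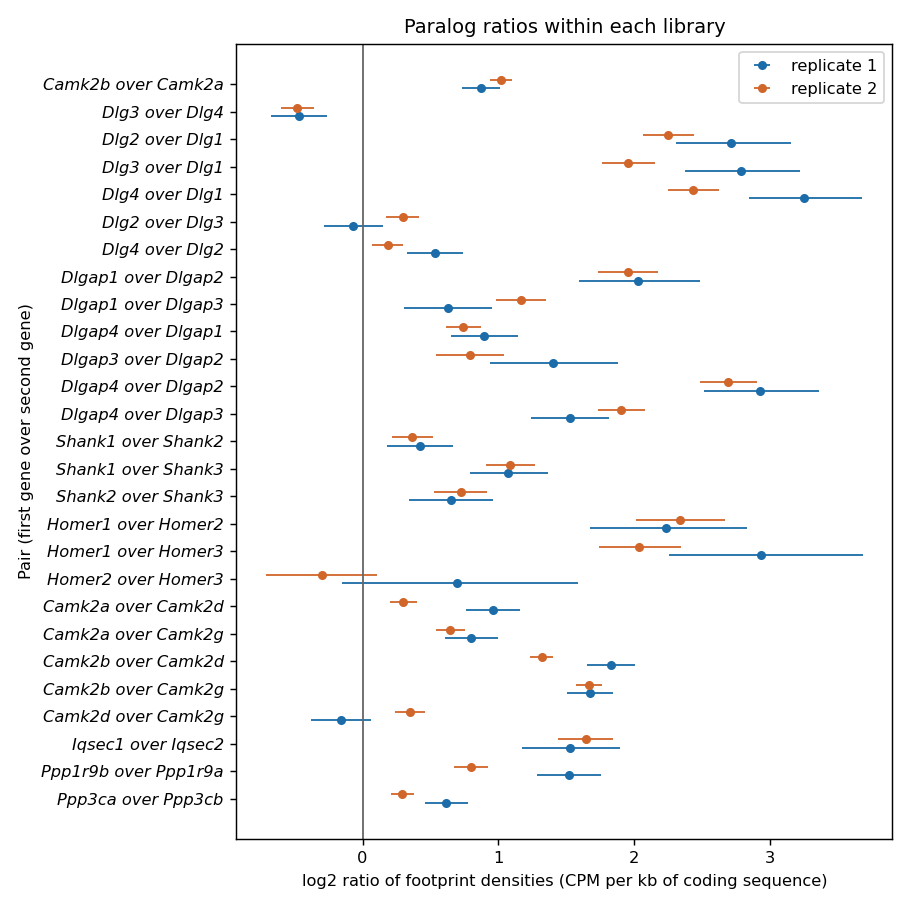
Log2 ratio of footprint densities for the 27 pairs of genes within a family, with 1 point per replicate and exact 95% counting intervals as bars. Values right of 0 mean that the first gene is denser. Camk2b over Camk2a lies above 0 and Dlg3 over Dlg4 below 0 in both libraries.

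Genes outside the set that share its pathways were taken from lists. Of 47 measured genes of other postsynaptic density proteins, the median density was 22.5, at percentile 48.9 of the coding genes, where the median percentile of the 32 was 71.4. The highest of this list was Dbn1 (drebrin, an actin-binding protein of spines) at percentile 96.9, and the lowest was Rgs14 at percentile 8.94. The 24 calmodulin and calcineurin partners had a median density of 81.9, at percentile 81.1. Gap43, which binds calmodulin in growing axons, was the highest at percentile 99.3, and Ppp3cc, the third calcineurin catalytic subunit, was the lowest at percentile 30.02. Ppp3cc had 26 and 105 footprints against 805 and 2475 for Ppp3ca. Ppp3r1, the calcineurin regulatory subunit, was at percentile 96.5.

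To see which genes differed between the replicate libraries, the share of a gene's footprints in replicate 2 was set against the share of the effective library sizes in an exact binomial test (two-sided). Effective sizes came from the trimmed mean of M values (TMM), and Benjamini-Hochberg adjustment ran over the 16427 genes that averaged 10 or more footprints. The test compares 2 libraries and covers counting error alone. It called 13 of the 32 genes at an adjusted p under 0.05, 8 higher and 5 lower in replicate 2, while 17.4% of all tested genes were called, 5.95% higher and 11.5% lower. Calls depend on depth, and 29 of the 32 genes averaged 100 or more footprints, where 34.0% of all genes were called. The median log2 ratio of the 32 genes was 0.04, and that of all tested genes was 0.01. TMM lowers log2 ratios by 0.12 at the median against scaling to library totals, under which 16 genes were called, 13 higher and 3 lower. That scaling called 19.0% of all genes. With every gene that had a footprint, 11 of the 32 were called against 9.93% of all genes, and with the highest transcript of each gene, 5 against 9.41%. In edgeR's exact test, which adds a common dispersion estimated from the same 2 libraries, 0 of the 32 were called, against 0.067% of all genes. In that test 3 of the 32 had an unadjusted p under 0.05, and the share of all genes at that unadjusted threshold is not given here.

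Nrgn differed most between the libraries. Replicate 1 had 325 CPM (299 to 352) and replicate 2 had 153 CPM (143 to 164), a log2 ratio of -1.21 (exact binomial test, adjusted p = 5.78e-49). Camk2n1 had 134 CPM (118 to 152) and 74.9 CPM (67.7 to 82.6), a log2 ratio of -0.97 (adjusted p = 6.37e-14, same exact test). Agap2 had 327 CPM (302 to 354) and 213 CPM (201 to 226), a log2 ratio of -0.74 (adjusted p = 2.73e-21, same exact test). For all 3 genes replicate 1 was the higher library, with no overlap of the intervals. Ppp1r9b and Shank1 were the other genes lower in replicate 2, at log2 ratios of -0.34 and -0.32, and neither was called with library totals. Shank2 and Shank3 had log2 ratios of -0.26 and -0.33 and were not called, with adjusted p-values of 0.0945 and 0.0972.

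Camk2d was the clearest of the genes that were higher in replicate 2. It had 175 CPM (157 to 195) and 285 CPM (271 to 299.7), a log2 ratio of 0.57 (exact binomial test, adjusted p = 5.60e-10). Dlg1 had 30.0 CPM (22.7 to 39.0) and 54.0 CPM (47.9 to 60.6), a log2 ratio of 0.71 (adjusted p = 0.00413, same exact test). Homer3, which is known as the Homer gene of Purkinje cells, had 10.7 CPM (6.54 to 16.5) and 22.0 CPM (18.2 to 26.4), a log2 ratio of 0.89 (adjusted p = 0.0417, same exact test). The other 5 were Baiap2, Ppp1r9a, Ppp3cb, Dlgap1 and Dlg2, at log2 ratios of 0.39, 0.38, 0.32, 0.31 and 0.25. Camk2a, Camk2b, Dlg3 and Dlg4 were not called, with log2 ratios between -0.11 and 0.07. Camk2b depended on the scaling, since it was called higher in replicate 2 with library totals, at a log2 ratio of 0.19. It was also called higher, at 0.42, with the density trend removed. That trend was the median ratio of tested genes with like CPM per kb of the longest transcript, not of coding sequence.

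**Figure D4:**
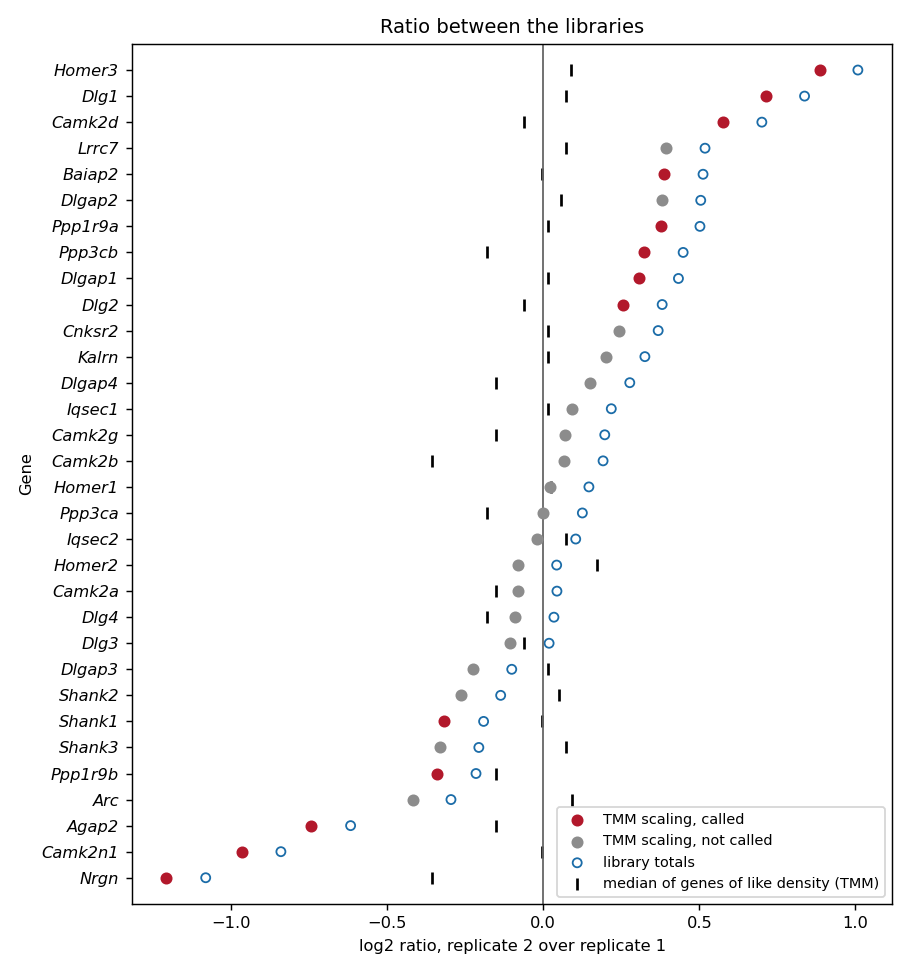
Log2 ratio of replicate 2 over replicate 1 for the 32 genes. Filled points are scaled by TMM (red where the exact binomial test called the gene), and open points are scaled to library totals. Ticks mark the median of tested genes with like CPM per kb of the longest transcript, not of coding sequence. Nrgn, Camk2n1 and Agap2 lie farthest left and Homer3, Dlg1 and Camk2d farthest right.

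Regional and cell type markers differed between the libraries as well. Their calls stand beside the 17.4% of all tested genes, or 34.0% of those that averaged 100 or more footprints, that were called. Of 10 forebrain excitatory markers, 6 were called and all 6 were lower in replicate 2, with a median log2 ratio of -0.38 and a summed level of 1299.5 CPM in replicate 1 and 1122 CPM in replicate 2. None of the 10 was at 0. Of 6 tested cerebellar granule cell markers, 2 were called, both higher in replicate 2, with a median of 0.26 and a sum over 8 genes of 511 and 628 CPM. Of those 6, 4 had positive log2 ratios, while Cbln1 and Zic2 had -0.10 and -0.07. Gabra6, with 0 footprints in replicate 1 and 7 in replicate 2, averaged under 10 and was not tested, and neither was Cbln3, with 2 and 14. Of 6 Purkinje cell markers, 1 was called, Pcp2, with 24 and 238 footprints, and the sum was 261 and 347 CPM. Of the 8 neuronal markers, 1 was called higher and 5 lower, with a median log2 ratio of -0.38 and a sum of 5419 and 4333 CPM. Among 8 astrocyte markers 4 were called, all lower, with a median of -0.24. Lower ratios in replicate 2 were thus not particular to the forebrain list. Oligodendrocyte markers had 4 higher and 3 lower calls among 9 genes, with a median of 0.47. Microglial markers had 1 of each among 5 genes, with a median of -0.08. The part of brain region in the differences of Nrgn, Agap2, Camk2n1 and Homer3 was not tested.

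The number of annotated transcripts moved with the ratio as well, a relation that was noticed after the values were seen. The 8 genes called higher in replicate 2 had 8 to 28 annotated transcripts, and the 5 called lower had 1 to 7. The Spearman correlation between the log2 ratio and the number of transcripts was 0.65 over the 32 genes and 0.41 over the 13317 coding genes, which all share the same 2 libraries. Coding genes with 1 to 2 transcripts had a median log2 ratio of -0.23, those with 3 to 7 had 0.05, those with 8 to 14 had 0.18 and those with 15 or more had 0.26. Counting protein-coding transcripts alone left this correlation at 0.65 and 0.39. When the median of genes with as many transcripts was removed, 13 of the 32 genes were again called, but 1 was higher and 12 were lower in replicate 2, against 13.5% of all tested genes. Only 6 of them were among the 13. Nrgn, Camk2n1 and Agap2 stayed called at -1.11, -0.82 and -0.60, as did Shank1, Ppp1r9b and Camk2d, the last at 0.28. Dlg1 and Homer3 were no longer called, at 0.49 and 0.72. Dlg3, Dlg4, Camk2a, Camk2b, Ppp3ca, Shank2 and Shank3 were called lower in this setting. The cause of the relation was not tested.

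**Figure D5:**
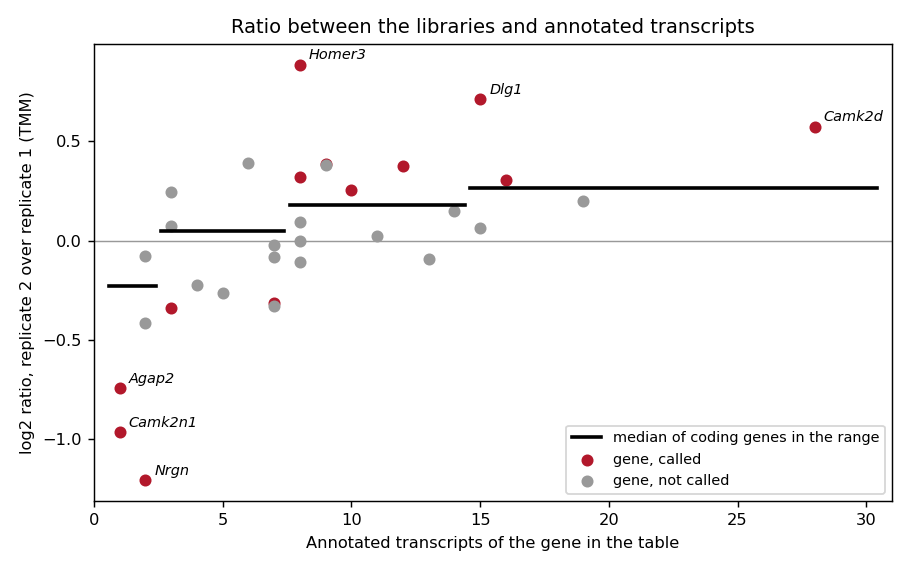
Log2 ratio of replicate 2 over replicate 1 (TMM) against the number of annotated transcripts of each of the 32 genes, red where called. Black lines give the median of all ranked coding genes with 1 to 2, 3 to 7, 8 to 14 and 15 or more transcripts (the last drawn to the edge of the plot), which step from -0.23 to 0.26.

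The table counts each transcript separately, and transcripts of 1 gene share exons. The 32 genes had 271 transcripts, 162 of them protein coding, which held 87.7% of their footprints in replicate 1 and 85.4% in replicate 2. Over the ranked coding genes these shares were 81.0% and 79.5%. In some genes, counts split nearly evenly between transcripts that differ little in their coding part. The 3 transcripts of Camk2g held 132, 116 and 114 footprints in replicate 1 and 390, 396 and 384 in replicate 2. The longer Camk2a-001, with 3372 nucleotides of 3' untranslated region, had 209 and 564 footprints, and Camk2a-002, with 1627 nucleotides, had 191 and 559. In other genes the split was uneven. Dlg4-001 and Dlg4-003, with coding sequences of 2166 and 2175 nucleotides, had 148 and 90 footprints in replicate 1 and 401 and 267 in replicate 2. Because transcripts share exons and the counting rule is not given, shares of single transcripts describe the deposited assignment and do not measure isoforms.

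Homer1 has long forms with a coiled coil that joins Homer molecules, and a short activity-induced form, Homer1a, that lacks it. Its 11 annotated transcripts were split at a coding length of 1000 nucleotides, a boundary set after the lengths were seen. The 8 transcripts below it, with coding sequences of 543 to 702 nucleotides, held 87.9% (81.7 to 92.6) of the gene's footprints in replicate 1 and 78.0% (74.0 to 81.6) in replicate 2. Homer1-001 held 30.6% and 23.7%, Homer1-005 24.2% and 17.8%, and Homer1-002 17.2% and 14.1%. These 3 also have long untranslated regions, of 1541 nucleotides at the 5' end for Homer1-001 and 4349 at the 3' end for Homer1-002, and the table does not say where on a transcript a footprint lay. The 3 transcripts with coding sequences of 1065 to 1113 nucleotides held 19 and 108 footprints.

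For Shank3, the full-length Shank3-001 (coding sequence 5418 nucleotides) held 39.2% and 43.3% of the count, Shank3-201 (5193) 36.4% and 38.4%, and the shorter Shank3-002 (2130) held 21 and 42 footprints. For Dlg2, 4 coding transcripts held 20.6% to 11.3% each in replicate 1, and Dlg2-005 and Dlg2-007, annotated as processed transcripts without a coding sequence, held 9.86% and 8.12% there and 9.71% and 11.7% in replicate 2. Kalrn spread over 19 transcripts, with 13.1% and 12.7% on Kalrn-009, 13.1% and 12.4% on Kalrn-011, and 9.39% and 11.3% on Kalrn-012. Agap2 and Camk2n1 have 1 transcript each, so their counts do not depend on such a split. Over the set, transcripts marked as targets of nonsense-mediated decay held 1.26% of footprints in replicate 1 and 1.75% in replicate 2, against 3.83% and 4.42% over the coding genes. Only 4 of the 32 genes have such transcripts. Ppp1r9a had 26.5% (21.0 to 32.6) and 31.2% (28.3 to 34.3) of its count there, on 3 transcripts of which 2 have coding sequences of 2868 and 2934 nucleotides. Dlg1 had 16.1% (7.62 to 28.3) and 15.8% (11.8 to 20.6), and Camk2d had 9.48% (6.53 to 13.2) and 8.34% (6.99 to 9.85). Dlg4, whose exon skipping outside mature neurons is known to trigger this decay, had 5.68% (3.71 to 8.27) and 5.20% (4.04 to 6.56).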

How the data were processed

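The authors deposited 1 table of whole-number footprint counts for 109463 transcripts, 1 column per replicate, without normalization, per the file headers. Other deposited columns hold annotated lengths in nucleotides. The submitters' processing notes name Trimmomatic 0.36, Bowtie2 2.2.6, SAMtools and the build GRCm38.p4. The counting rule, the annotation release and the handling of duplicates, strand and fragments with several matches are not given in the sources used here. No coordinates or sequences are printed. All 32 symbols were also in a RefSeq table of GRCm38.p6.

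Counts were summed over the transcripts of a gene. In 58 pairs of transcripts of 1 gene with identical lengths, the mean squared difference over the sum of the counts was 1.68, where 0 would mean that each shared fragment was counted on both. CPM used library totals. TMM came from edgeR 4.0.16, with DESeq2 1.42.0 size factors as an alternative. TMM factors were 0.957 and 1.04. Log2 ratios used a prior of 0.5 CPM. With 1 group there is no contrast for a quasi-likelihood fit. The binomial test was tested on simulated data with counting error alone, as the test itself assumes. That simulation cannot show how the test behaves under variation between replicates. The common dispersion estimated from the 2 libraries gave a biological coefficient of variation of 0.167. Intervals on pairs of genes condition on their summed count. The labels call the samples biological replicates and do not say how many animals each holds. The members and lists were chosen with earlier results of these data known. All members are named, and from a list only its highest and lowest gene and genes that a result turns on, the latter chosen after their values were seen. Calls and alternatives are given in the closing section.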

Additional observations from a re-analysis of the deposited data

How the results depend on the processing

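No paired analysis was possible because the samples form 1 group. The share of all footprints, 0.562%, became 0.377% with the highest transcript of each gene and 0.644% with protein-coding transcripts alone, and ranged from 0.543% to 0.580% with either replicate left out. The median density percentile of 71.4 became 48.1 with the highest transcript, 77.4 with all coding genes that had a footprint and 64.7 among genes that averaged 100 or more footprints, and ranged from 68.3 to 72.1 with either replicate left out. The 13 calls became 5 with the highest transcript, 4 of them among the 13, and 0 with edgeR's exact test. The count was 16 with library totals (11 of them among the 13), 13 with DESeq2 size factors (13), 11 with every gene that had a footprint (11), 13 with genes that averaged 100 or more (12) and 12 with protein-coding transcripts (11). The shares called over all tested genes, in the same order, were 19.0%, 17.4%, 9.93%, 34.0% and 18.2%. They were 9.41% with the highest transcript and 0.067% with edgeR's exact test. Both trend removals were chosen after the data were examined. With the density trend removed the count was 15 (10), against 15.8% of all tested genes. With the transcript-number trend removed it was 13 (6), 1 higher and 12 lower, against 13.5% of all tested genes. Ppp3ca turned to a log2 ratio of 0.18 with the density trend removed, and Camk2b turned to -0.15 with the transcript-number trend removed. The log2 ratio of Camk2b over Camk2a, 0.94, was -0.82 with the highest transcript, 0.83 with protein-coding transcripts, 1.21 with the coding length of the highest transcript and 1.66 per transcript length, and ranged from 0.87 to 1.02 by replicate. That of Dlg3 over Dlg4, -0.47, was -0.92, -0.73, -0.51 and -0.86 in the same order, and ranged from -0.48 to -0.46 by replicate. Among the other 25 pairs, the highest transcript turned Dlgap1 over Dlgap3 to -0.67 and Camk2b over Camk2g to -0.11. The cause of these changes was not tested, apart from the highest transcript setting, which drops most of the count of a gene with many transcripts by construction. With 20 and 32 footprints in replicate 1, depth limits Homer3, Homer2 and Arc.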

Other observations

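At the other side of the excitatory synapse, 16 genes of the presynaptic active zone had a median density percentile of 53.6, with Erc1, a scaffold of release sites, the highest at percentile 83.0 and Unc13c the lowest at percentile 5.43. The giant scaffolds Pclo and Bsn, which organise the same release sites, differed in opposite directions between the libraries. Pclo had 136 CPM in replicate 1 and 225 CPM in replicate 2, and Bsn had 138 CPM and 91.6 CPM. Their log2 ratios were 0.60 and -0.71, and both were called by the exact binomial test. The table held 10 genes of the inhibitory postsynapse, with a median percentile of 71.3, from Dmd at percentile 15.6 to Kctd12 at percentile 86.3. Gphn, the gephyrin scaffold that anchors glycine and GABA receptors, had 104 CPM and 134 CPM and was not called.

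Of 24 calmodulin and calcineurin partners, 10 were called, 3 higher and 7 lower in replicate 2, beside 17.4% of all tested genes and 34.0% of those that averaged 100 or more footprints. Gap43 had 663 CPM and 343 CPM, a log2 ratio of -1.08. Camk2n2, the relative of Camk2n1, had 86.2 CPM and 47.1 CPM, a log2 ratio of -0.99. Pcp4, a calmodulin-binding peptide, had 82.0 CPM and 60.6 CPM, a log2 ratio of -0.56. Among the 1332 coding genes in the shortest 10% by coding length, which hold Nrgn and Camk2n1, the median log2 ratio was -0.17, and both genes lay in the lowest percentiles of that group, at 0.601 and 1.65. The genes named here beyond the highest and lowest of each list were picked after their values were seen.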
